A study of Homo sapiens with 16 samples.

Results

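The receptors of the epidermal growth factor (EGF) family, their ligands and their nearest companions were followed through RNA sequencing of 2 pancreatic cancer cell lines. The members were 10 genes named in a list, EGFR, ERBB2, ERBB3, MET, AREG, EREG, HBEGF, TGFA, BTC and ERRFI1, taken from the gene names of the FPKM table and joined to the count table by their Ensembl identifiers. They are 10 of the 63677 genes of the count table. Mia-PaCa-2 (MiaPaCa2 from here on) and PANC-1 (PANC1) are established human lines from pancreatic ductal adenocarcinoma, and both were grown in the same serum-containing medium. Each line had 4 groups of 24 hours, an untreated control, 40 nM gemcitabine, 50 uM genistein, and 40 nM gemcitabine with 50 uM genistein (both drugs). Gemcitabine is a nucleoside analogue that stops DNA synthesis, and genistein is a soy isoflavone that inhibits tyrosine kinases and binds estrogen receptors. Every group held 2 replicates, labelled I and II, which made 16 libraries, and each line stands for a single tumor. Genistein was dissolved in DMSO.

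EGFR, ERBB2 and ERBB3 are cell surface receptors that pair with each other when a ligand binds and then signal to the ERK and PI3K pathways. ERBB2 has no known ligand of its own and ERBB3 has little kinase activity, so both work mainly as partners. The ligands AREG (amphiregulin), EREG (epiregulin), HBEGF (heparin-binding EGF), TGFA (transforming growth factor alpha) and BTC (betacellulin) are made as membrane proteins and cut free by ADAM proteases. ERRFI1 (also called MIG6) binds the kinase domain of EGFR and holds it inactive, and its gene is itself switched on by the receptor. MET is the receptor of hepatocyte growth factor and shares many downstream steps with EGFR.

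The depth of the libraries ran from 12943482 to 31991860 counted reads with a median of 16059396.5, and the medians of the lines were 15877725 (MiaPaCa2) and 16952674.5 (PANC1). The epithelial keratins KRT8 and KRT18 lay between 369.1 and 1076 FPKM in all libraries, whereas the summed level of 3 endothelial markers reached at most 1.718 FPKM. Of 6 epithelial markers, 3 had a mean above 1 FPKM in MiaPaCa2, where EPCAM was at 0 in every library, and 6 did in PANC1. Of 5 mesenchymal markers, 4 had a mean above 1 FPKM in each line. Their summed level was 2359 to 3901 in the 8 MiaPaCa2 libraries and 1473 to 2813 in PANC1. Most of that sum was VIM, at 2336 to 3875 and 1398 to 2735. CDH2 was higher in PANC1, at 8.061 to 13.01 against 0 to 0.01015. AXL was too, at 55.77 to 68.02 against 18.54 to 22.39, while ZEB1 and FN1 overlapped between the lines. Of 4 leukocyte markers, 2 had a mean above 1 FPKM in MiaPaCa2 and 1 in PANC1. The pan-leukocyte gene PTPRC reached at most 0.01457 FPKM and CD3E at most 0.0236. CD68, which tumor cells can also express, reached 221.2. CD14 lay between 1.011 and 4.982 in MiaPaCa2 and between 0.2158 and 1.483 in PANC1. The 5 acinar and islet markers summed to at most 0.1027 FPKM and the 4 fibroblast markers to at most 4.906. RNA from fewer expressing cells and less RNA per cell cannot be told apart in bulk libraries.

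The promoters of HBEGF and TGFA, which rose with both drugs in both lines, of ERRFI1, which fell with both drugs in both lines, and of AREG and EREG, which rose and fell in MiaPaCa2, are shown because these genes carry the drug responses described further on. RefSeq (GRCh38.p14) gave 11 promoter entries for 9 of the 10 members, namely EGFR, ERBB2, MET, AREG, EREG, HBEGF, TGFA, BTC and ERRFI1, and the 250 bases before the start are printed, 5′ to 3′ on the gene's strand. Capitals mark matches, on either strand, to an AP-1 site (TGANTCA), a cAMP response element (TGACGTCA), an EGR site (GCGNGGGCG), a TEAD site (GGAATG), a GC box (GGGCGG) or a TATA box (TATAAA). The EGR site and the GC box can overlap.
HBEGF (chr5:140346604-140346853, minus strand): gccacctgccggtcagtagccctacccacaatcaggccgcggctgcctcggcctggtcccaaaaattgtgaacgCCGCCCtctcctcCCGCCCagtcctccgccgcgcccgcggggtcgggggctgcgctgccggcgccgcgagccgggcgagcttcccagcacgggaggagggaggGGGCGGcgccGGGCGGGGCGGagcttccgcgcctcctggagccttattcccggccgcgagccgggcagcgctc
TGFA, first entry (chr2:70553827-70554076, minus strand): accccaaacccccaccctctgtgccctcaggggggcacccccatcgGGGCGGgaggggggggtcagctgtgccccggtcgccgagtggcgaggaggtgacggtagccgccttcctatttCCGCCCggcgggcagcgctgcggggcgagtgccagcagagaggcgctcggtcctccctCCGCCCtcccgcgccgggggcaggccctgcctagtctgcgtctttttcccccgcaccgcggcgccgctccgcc
ERRFI1 (chr1:8026310-8026559, minus strand): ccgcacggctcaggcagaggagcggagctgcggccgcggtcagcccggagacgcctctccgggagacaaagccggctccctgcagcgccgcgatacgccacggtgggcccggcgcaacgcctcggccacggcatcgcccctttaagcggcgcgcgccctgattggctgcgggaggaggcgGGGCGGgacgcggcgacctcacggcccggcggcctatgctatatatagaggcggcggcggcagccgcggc
AREG (chr4:74444886-74445135, plus strand): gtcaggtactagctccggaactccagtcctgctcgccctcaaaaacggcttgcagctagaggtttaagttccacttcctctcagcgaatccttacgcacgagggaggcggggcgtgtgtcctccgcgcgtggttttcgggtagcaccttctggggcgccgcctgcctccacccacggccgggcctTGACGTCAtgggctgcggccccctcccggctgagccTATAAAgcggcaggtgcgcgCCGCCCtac
EREG (chr4:74364895-74365144, plus strand): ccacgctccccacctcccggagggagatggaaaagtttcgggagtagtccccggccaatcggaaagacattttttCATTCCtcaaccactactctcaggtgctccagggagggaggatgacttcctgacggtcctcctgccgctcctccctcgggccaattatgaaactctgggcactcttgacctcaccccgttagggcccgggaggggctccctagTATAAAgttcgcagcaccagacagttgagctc
The 250 bases of HBEGF were 76.4% G and C and held 5 GC boxes, and those of the first TGFA entry were 75.6% G and C and held 3. The second TGFA entry, not printed, was 64.0% G and C and held no match to any of these motifs. ERRFI1 (75.2%) held 1 GC box. AREG (65.2%) and EREG (58.0%), which are neighbours on chromosome 4, each held a TATA box close to the start, and AREG also had a cAMP response element and a GC box. Among the 35116 promoters of the table, 42.6% held a GC box, 10.7% a TATA box, 1.65% a cAMP response element, 6.57% an AP-1 site, 11.9% a TEAD site and 8.42% an EGR site. Of the 11 entries of members, 6 held a GC box, 3 a TATA box, 2 an AP-1 site, 2 a TEAD site, 1 a cAMP response element and 0 an EGR site in these windows. A match describes the letters of the promoter and not the binding of a factor.

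The untreated lines differed in most of the family. EGFR and MET were higher in PANC1, whereas ERBB2, ERBB3, ERRFI1 and the ligands AREG, EREG and BTC were higher in MiaPaCa2. By FPKM, a level per length, the order in MiaPaCa2 was ERRFI1, ERBB2, AREG, EREG, EGFR, MET, BTC, ERBB3, HBEGF and TGFA, and in PANC1 it was ERRFI1, MET, ERBB2, EGFR, ERBB3, HBEGF, EREG, AREG, TGFA and BTC. BTC and ERBB3 in MiaPaCa2, and MET and ERBB2, ERBB3 and HBEGF, and AREG and TGFA in PANC1, changed places between the replicates. Under a test of all genes (limma-voom, Benjamini-Hochberg adjustment, a call needing adjusted p ≤ 0.05, |log2 fold change| ≥ 0.4 and an average over 1 FPKM in either line), 8 of the 10 members were called, 2 higher and 6 lower in PANC1, against 52.3% of 17863 genes tested.

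**Figure D1:**
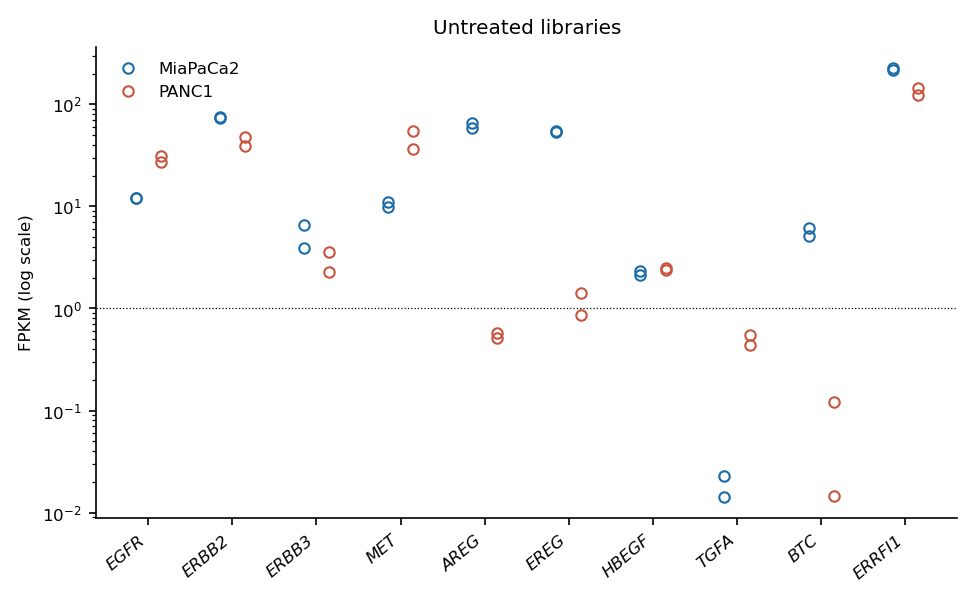
FPKM (log scale) of the 10 genes in the untreated libraries, 1 circle per library, MiaPaCa2 in blue and PANC1 in red, with a dotted line at 1 FPKM. AREG, EREG and BTC stand far higher in MiaPaCa2, the circles of HBEGF lie close together in both lines, and TGFA is under 1 FPKM in all 4 libraries.

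EGFR (chromosome 7, 55086710 to 55279321 on GRCh37) had 12.0 and 12.2 FPKM in the untreated MiaPaCa2 libraries and 27.4 and 31.0 in those of PANC1, which is a log2 difference of 1.20 ± 0.080 (SE, n = 2 per line, adjusted p = 2.99e-08 by limma-voom). MET (chromosome 7, 116312250 to 116438431) had 9.93 and 11.1 FPKM in MiaPaCa2 and 36.2 and 54.7 in PANC1, a log2 difference of 2.53 ± 0.158. The libraries of the lines did not overlap for either receptor. ERBB2 (chromosome 17, 37844167 to 37886679) went the other way, with 73.5 and 75.5 FPKM in MiaPaCa2 and 48.0 and 39.4 in PANC1, a log2 difference of -0.85 ± 0.148. ERBB3 (chromosome 12, 56470583 to 56497289) was low in both lines, at 146 and 123 counts in MiaPaCa2 and 44 and 94 in PANC1, with a log2 difference of -1.80 ± 0.201. Its FPKM values of 3.96 and 6.59 against 2.29 and 3.54 spread more than its counts (Cufflinks listed 22 isoforms), and on log2(FPKM + 1) the difference was not called.

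For 4 of the 5 ligands the log2 difference was larger than that of any receptor, and for AREG, TGFA and BTC the lower line had 3 counts or fewer in a library, so that the fitted size depends on the small count that the fit adds. EREG (chromosome 4, 75230862 to 75254466) had 54.6 and 53.3 FPKM in untreated MiaPaCa2 and 0.861 and 1.42 in PANC1, and the fitted level was 0.0244-fold (log2 difference -5.36 ± 0.203). BTC (chromosome 4, 75669969 to 75719733) had 348 and 230 counts in MiaPaCa2 and 1 and 3 in PANC1, where its FPKM values of 0.0144 and 0.122 rest on those few reads. TGFA (chromosome 2, 70674416 to 70781325) had 2 and 1 counts in MiaPaCa2 and 47 and 71 in PANC1, which passed the adjusted p but not the limit of 1 FPKM. HBEGF (chromosome 5, 139712428 to 139726188) had 2.34 and 2.13 FPKM in MiaPaCa2 and 2.39 and 2.48 in PANC1, a log2 difference of 0.22 ± 0.180 with an adjusted p of 0.308 by limma-voom. It was the one ligand of 5 whose untreated level did not pass the test between the lines. ERRFI1 (chromosome 1, 8064464 to 8086369), the inhibitor, had 218 and 225 FPKM in MiaPaCa2 and 124 and 144 in PANC1, a log2 difference of -0.75 ± 0.082.

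AREG (chromosome 4, 75310853 to 75320722) needs its own account, since its counts and its FPKM stand far apart. It had 14 and 9 counts in untreated MiaPaCa2 but 58.2 and 65.6 FPKM, and 0 and 1 counts with 0.518 and 0.570 FPKM in untreated PANC1. Of the 1348 stretches of 50 bases in its exons, 1316 (97.6%) occur again in GRCh37, and all of those copies lie on chromosome 4 between 75480629 and 75490432, in AREGB, a second copy of the gene in this build. AREGB itself was given 53.3 to 75.1 FPKM in the 8 MiaPaCa2 libraries and 0.431 to 1.05 in those of PANC1. Reads with several alignments had been removed before counting, so the counts of AREG rest on the 32 stretches found once, and its values are uncertain on both scales. For the other 9 members, at most 3.95% of these stretches occurred again. The difference between the lines held on both scales, at a log2 difference of -4.55 ± 0.534 on counts.

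Of the receptors and ligands outside the members, ERBB4, NRG1 and HGF were listed at 0 FPKM in all 8 MiaPaCa2 libraries. NRG1 (neuregulin 1, a ligand of ERBB3) lay between 8.05 and 15.0 FPKM in PANC1. EGF reached at most 0.802 FPKM in MiaPaCa2 and 0.412 in PANC1, ERBB4 at most 0.174 and HGF, the ligand of MET, at most 0.487 in PANC1. Of the 8 genes of this list, 3 were tested between the lines and all 3 were called, 2 higher and 1 lower in PANC1. Over all 17863 genes tested, 52.3% were called in this comparison.

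In MiaPaCa2, gemcitabine raised 3 members and lowered 3. HBEGF, ERBB3 and AREG rose, and EGFR, EREG and ERRFI1 fell. These 6 of 10 members tested stand against 29.6% of 16064 genes called in the comparison. TGFA passed the adjusted p and the fold limit but, at a mean of 0.987 FPKM, only just missed the limit of 1 FPKM. All comparisons with control in a line share the same 2 control libraries, so their values are given side by side and not as separate evidence.

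**Figure D2:**
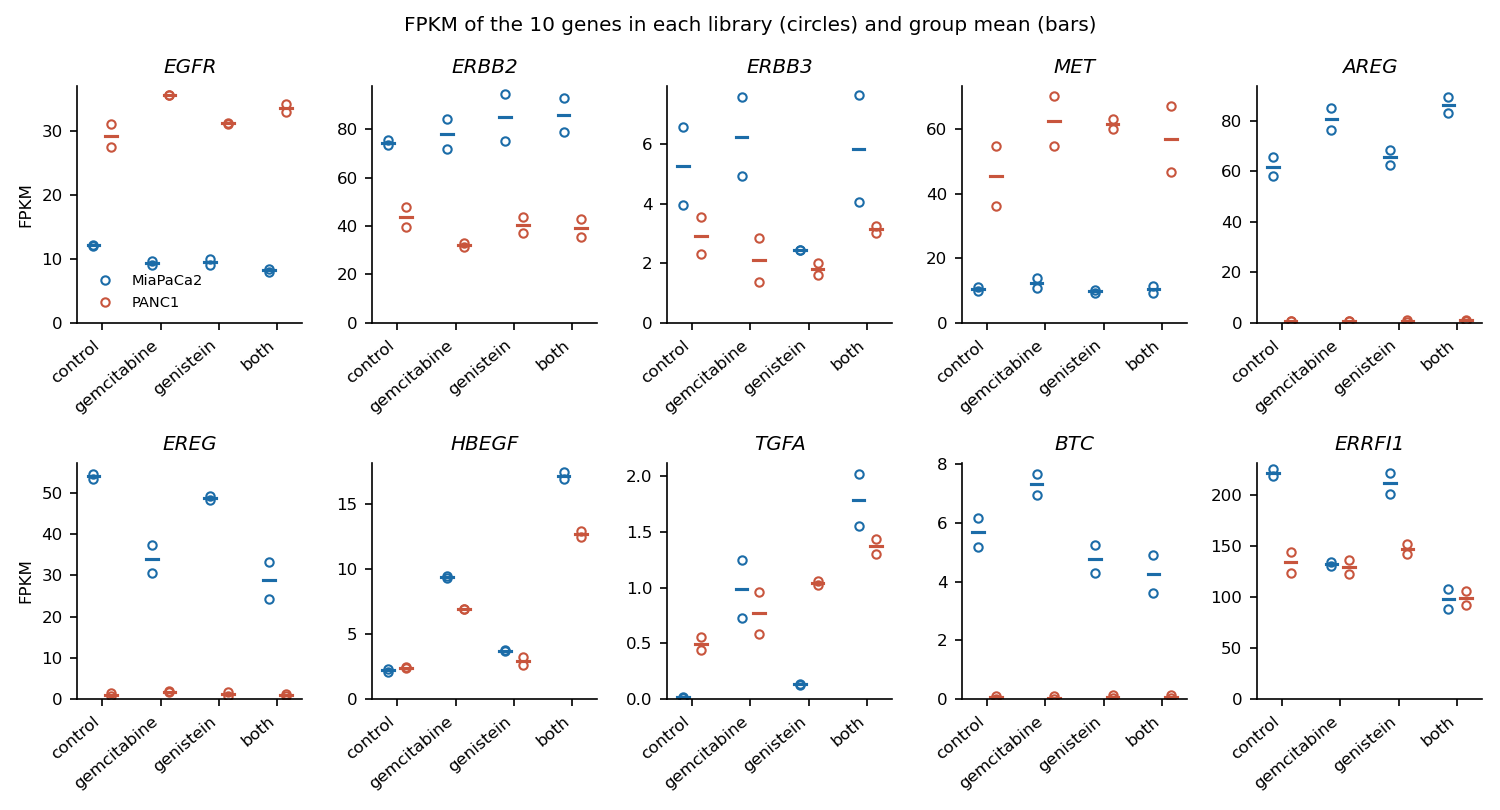
FPKM of each gene by treatment, with 1 circle per library and a short bar at the mean of the 2 libraries, MiaPaCa2 in blue and PANC1 in red, each panel on its own axis from 0. HBEGF climbs from about 2 FPKM in the controls to 17 in MiaPaCa2 and 13 in PANC1 with both drugs, TGFA climbs too, and ERRFI1 falls to about 100 in both lines.

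HBEGF had 6.64 and 4.58 CPM (TMM-scaled counts relative to library size) in the MiaPaCa2 controls, 23.5 and 25.0 with gemcitabine, 10.8 and 10.4 with genistein, and 44.3 and 47.4 with both drugs. In FPKM these were 2.34 and 2.13, then 9.32 and 9.49, then 3.76 and 3.70, and then 17.0 and 17.4. Every treated library lay above both controls, and the libraries with both drugs lay above all others. The log2 fold change was 2.11 ± 0.173 with gemcitabine (adjusted p = 6.10e-06), 0.91 ± 0.187 with genistein (adjusted p = 0.0109) and 3.03 ± 0.168 with both drugs (adjusted p = 1.04e-07), all by limma-voom. The last of these is an 8.15-fold rise. Both drugs against gemcitabine alone gave 0.92 ± 0.122 (adjusted p = 0.00120 by limma-voom). On log2(FPKM + 1) the value with genistein was 0.55 with an adjusted p of 0.0793 by limma, and that call was lost. Without the second control library the genistein value was 0.67 with an adjusted p of 0.112 by limma-voom, and its call was lost.

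PANC1 showed the same ligand rising. HBEGF had 93 to 554 counts in the PANC1 libraries. Its TMM-scaled CPM values were 6.55 and 6.59 in the controls, 17.8 and 17.7 with gemcitabine, 8.98 and 7.20 with genistein, and 30.8 and 32.1 with both drugs, which in FPKM are 2.39 and 2.48, 6.91 and 6.94, 3.24 and 2.61, and 12.5 and 13.0. The groups with gemcitabine and with both drugs did not overlap the controls. The log2 fold change was 1.43 ± 0.151 with gemcitabine (adjusted p = 0.00312) and 2.26 ± 0.147 with both drugs (adjusted p = 2.59e-04) by limma-voom. For both drugs against gemcitabine the value was 0.83 ± 0.138, which missed the threshold over all genes (adjusted p = 0.113 by limma-voom), although DESeq2 gave it an adjusted p of 0.00275. The call with gemcitabine was lost when either gemcitabine library was left out (adjusted p = 0.0551 and 0.0581 by limma-voom) at values of 1.42 and 1.43.

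TGFA, a high-affinity ligand of EGFR, was nearly silent in untreated MiaPaCa2. It had 2 and 1 counts in the controls, 38 and 27 with gemcitabine, 8 and 11 with genistein, and 198 over the 2 libraries with both drugs, the last at 2.02 and 1.55 FPKM. With 3 control counts in all, its ratio to control was 19.0 with gemcitabine (95% exact counting interval 6.22 to 94.5), 5.56 with genistein (1.64 to 29.3) and 63.8 with both drugs (21.5 to 312.1). These intervals cover counting error only, and a fitted fold of so low a gene depends on the small count that the fit adds. The adjusted p by limma-voom was 2.49e-04 with gemcitabine, 0.0394 with genistein and 4.32e-06 with both drugs, but the mean reached 1 FPKM with both drugs only, so that is the one call against control. With gemcitabine the mean was 0.987 FPKM (1.24 and 0.730 in the libraries), which only just missed this limit. Between the treated groups, both drugs exceeded gemcitabine by 1.74 ± 0.240 on the log2 scale (adjusted p = 0.00152 by limma-voom). The lowest value under other settings was 0.49, and on log2(FPKM + 1) this call was lost.

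TGFA was also raised in PANC1 by both drugs. Its FPKM there was 0.553 and 0.443 in the controls, 0.587 and 0.960 with gemcitabine, 1.06 and 1.03 with genistein, and 1.30 and 1.44 with both drugs, from 47 counts upward in every library. The libraries with both drugs lay above all others. Both drugs gave a log2 fold change of 1.47 ± 0.251 (adjusted p = 0.00688 by limma-voom). With genistein alone it was 1.10 ± 0.266, whose adjusted p was 0.121 by limma-voom and 0.0416 by DESeq2. With gemcitabine alone it was 0.68 ± 0.262, which did not pass.

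AREG rose on the counts of MiaPaCa2, from 14 and 9 in the controls to 31 and 28 with gemcitabine and 35 and 37 with both drugs, and lay at 12 and 10 with genistein. The FPKM values, which hold reads shared with AREGB, were 58.2 and 65.6 in the controls, 85.0 and 76.3 with gemcitabine, 89.4 and 83.1 with both drugs, and 68.3 and 62.7 with genistein. The log2 fold change on counts was 1.14 ± 0.364 with gemcitabine and 1.57 ± 0.355 with both drugs, against 0.38 and 0.47 on log2(FPKM + 1). The call with gemcitabine was lost with DESeq2 (adjusted p = 0.109) and when any single library was left out. In PANC1 AREG had at most 1 count in a library and was not tested.

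EREG and BTC, the other ligands at high levels in MiaPaCa2, went down or stayed. EREG had 54.6 and 53.3 FPKM in the controls, 37.4 and 30.7 with gemcitabine, 48.2 and 49.1 with genistein, and 33.3 and 24.2 with both drugs. Its log2 fold change was -0.76 ± 0.118 with gemcitabine (adjusted p = 3.91e-04) and -1.12 ± 0.121 with both drugs (adjusted p = 1.06e-05) by limma-voom. EREG has the lowest GC content of the members (38.1% of its exon bases), and the slope of log2 CPM on GC content also moved with the treatment, from -0.226 to -0.135 per 10 points in the MiaPaCa2 controls to 0.0535 to 0.142 with gemcitabine and 0.0407 to 0.277 with both drugs. After a correction for GC content the values of EREG were -0.32 and -0.47, and the first was no longer past the fold limit. In PANC1, where EREG had 50 to 209 counts, it was not called in any of these comparisons, and with both drugs its value was -0.69 ± 0.309 (adjusted p = 0.159 by limma-voom). After the GC correction the PANC1 value was -0.66 ± 0.206 and was called (adjusted p = 0.0286 by limma-voom). On log2(FPKM + 1) it was -0.073 (adjusted p = 0.871 by limma) and was not called.

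BTC had 348 and 230 counts in the MiaPaCa2 controls, 281 and 241 with gemcitabine, 150 and 266 with genistein, and 223 and 176 with both drugs. Scaled by TMM these are 21.2 and 17.6 CPM, 16.4 and 14.6, 12.1 and 12.5, and 15.4 and 11.0. The log2 fold change was -0.65 ± 0.167 with genistein (adjusted p = 0.0269) and -0.58 ± 0.168 with both drugs (adjusted p = 0.0108) by limma-voom. These calls depended on the processing. BTC has 38.9% GC, and after the correction for GC content the value with both drugs was 0.0091, while the call with genistein was lost when any single library was left out. With genistein the value after the GC correction was -0.3999, just under the fold limit. In FPKM the gemcitabine libraries, at 7.66 and 6.95, even stood above the controls at 6.17 and 5.16. BTC had 0 to 3 counts in every PANC1 library and was not tested there.

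EGFR fell in MiaPaCa2. It had 12.0 and 12.2 FPKM in the controls, 9.70 and 9.02 with gemcitabine, 9.03 and 9.95 with genistein, and 8.39 and 7.96 with both drugs, and no treated library reached a control. The log2 fold change was -0.60 ± 0.091 with gemcitabine (adjusted p = 3.55e-04) and -0.80 ± 0.093 with both drugs (adjusted p = 1.91e-05) by limma-voom. On log2(FPKM + 1) the value with gemcitabine was -0.34 with an adjusted p of 0.0929 by limma, and the call was lost. With genistein it was -0.36 ± 0.091, past the adjusted p (0.0261 by limma-voom) but under the fold limit. After the GC correction the genistein value was -0.46 ± 0.078 and was called (adjusted p = 0.00217 by limma-voom). In PANC1 the receptor had 27.4 and 31.0 FPKM in the controls and 31.1 to 35.6 in the treated libraries, all above the controls. On TMM-scaled CPM the groups overlapped, at 314 and 364 in the controls and 301 to 382 in the treated libraries, and EGFR was not called in any comparison there.

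ERBB3 was called higher in MiaPaCa2 with gemcitabine, from 146 and 123 counts in the controls to 213 and 228, with a log2 fold change of 0.52 ± 0.154 (adjusted p = 0.0183 by limma-voom). With both drugs it had 175 and 199 counts and a value of 0.42 ± 0.157 (adjusted p = 0.0382 by limma-voom). Both calls were weak: the first was lost in 3 of 4 fits that left out a library, and the second in all 4, with DESeq2 (adjusted p = 0.100) and with the GC correction. Genistein alone gave 98 and 132 counts, and a value of -0.41 ± 0.169 that did not pass. After the GC correction the genistein value was -0.53 ± 0.134 and was called (adjusted p = 0.0157 by limma-voom). ERBB2 and MET were not called by limma-voom in any drug comparison in either line with all libraries. ERBB2 lay between 71.9 and 94.7 FPKM in MiaPaCa2 and between 31.3 and 48.0 in PANC1, and MET between 9.31 and 13.9 in MiaPaCa2 and between 36.2 and 70.3 in PANC1. With both drugs in MiaPaCa2, ERBB2 passed the adjusted p (0.0345 by limma-voom) at a log2 fold change of 0.26 ± 0.094, which is under the fold limit. With gemcitabine in PANC1, MET had a value of 0.46 ± 0.158 (adjusted p = 0.116 by limma-voom) and ERBB2 one of -0.36 ± 0.159 (adjusted p = 0.200 by limma-voom). Other settings did call them there. MET was called after the GC correction (0.41, adjusted p = 0.00803 by limma-voom), and without the second control library both were called, MET at 0.64 (adjusted p = 0.0365) and ERBB2 at -0.59 (adjusted p = 0.0421).

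ERRFI1, the inhibitor of EGFR, fell in both lines. In MiaPaCa2 it had 218 and 225 FPKM in the controls, 130 and 134 with gemcitabine, 201 and 221 with genistein, and 107.8 and 88.8 with both drugs. The log2 fold change was -0.86 ± 0.084 with gemcitabine (adjusted p = 1.70e-05) and -1.27 ± 0.086 with both drugs (adjusted p = 3.57e-07) by limma-voom, and the latter is a fall to 0.415-fold. Both drugs against gemcitabine gave -0.41 ± 0.088 (adjusted p = 0.0155 by limma-voom), just past the fold limit and lost in 3 of 4 fits that left out a library. In PANC1 the values were 124 and 144 FPKM in the controls, 123 and 136 with gemcitabine, 142 and 152 with genistein, and 106.1 and 92.1 with both drugs. There it fell with both drugs only, at a log2 fold change of -0.60 ± 0.105 (adjusted p = 0.00777 by limma-voom). This call was lost in a fit of only the 4 libraries compared (adjusted p = 0.0748 by limma-voom). It was also lost on log2(FPKM + 1), at -0.43 with an adjusted p of 0.0510 by limma.

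**Figure D3:**
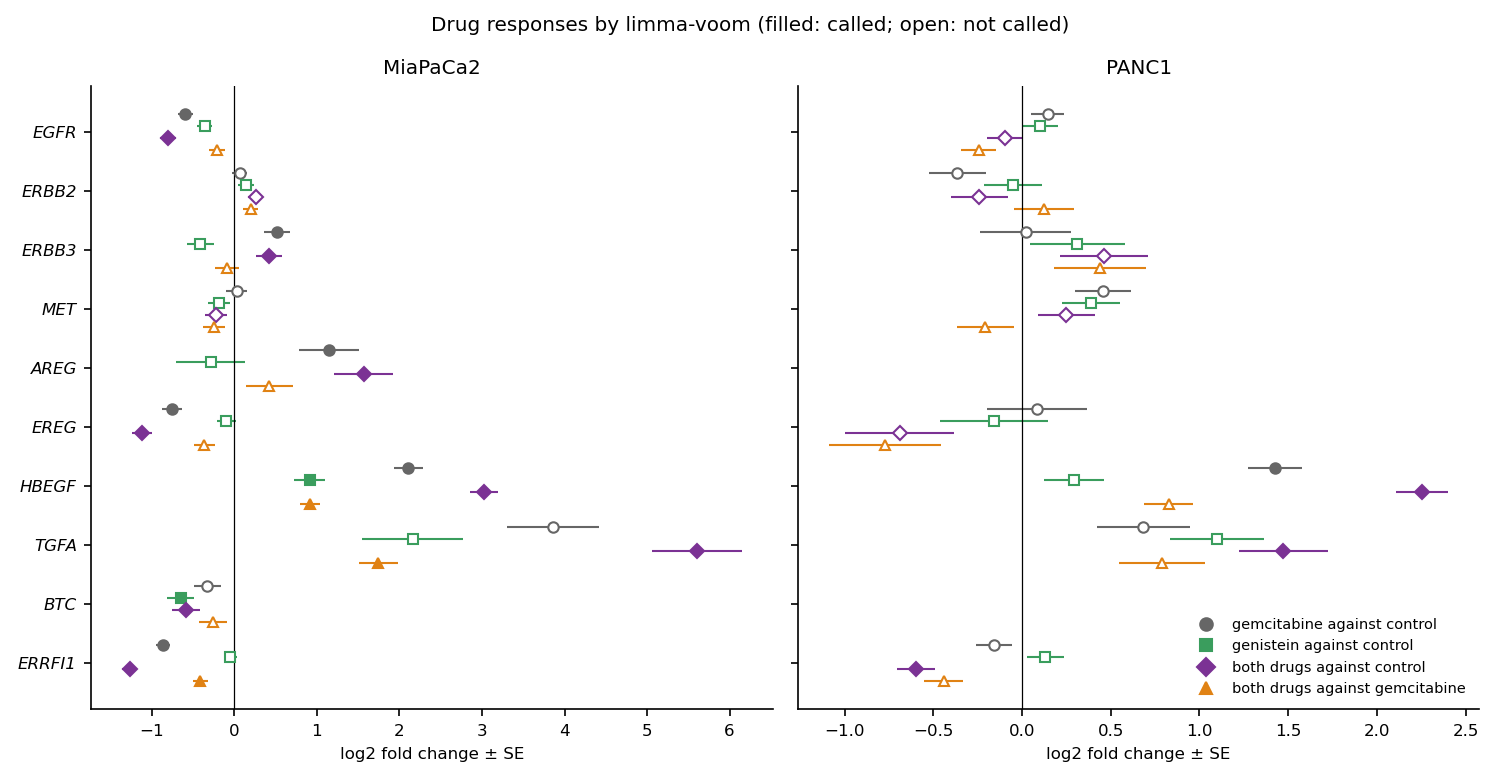
Log2 fold change (x axis, error bars SE) of each gene in 4 comparisons per line, filled symbols for called values and open symbols for the others; the panels have different x axes, and AREG and BTC were not tested in PANC1. HBEGF and TGFA lie furthest to the right in every panel and comparison except genistein alone in PANC1, where MET and ERBB3 lie right of HBEGF, and ERRFI1 lies left of 0 with both drugs in both.

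The counts of members called read as follows against all genes. Genistein alone in MiaPaCa2 moved 2 of 10 (HBEGF higher, BTC lower), against 8.31% of 16064 genes. Both drugs in MiaPaCa2 moved 8 of 10, HBEGF, TGFA, AREG and ERBB3 higher and EGFR, EREG, BTC and ERRFI1 lower, against 40.5%. Adding genistein to gemcitabine there moved 3 of 10 (HBEGF and TGFA higher, ERRFI1 lower), against 5.88%. In PANC1, where 8 members passed the filter on low counts, gemcitabine moved 1 (HBEGF), against 7.52% of 16909 genes, and both drugs moved 3 (HBEGF and TGFA higher, ERRFI1 lower), against 17.1%. Genistein alone called 0 of 8 in PANC1 by limma-voom, against 0.0591% of all genes, with 2 at an unadjusted p under 0.05, 0 by edgeR and 1 by DESeq2. Both drugs against gemcitabine called 0 of 8 in PANC1 by limma-voom, against 0.0177%, with 5 at an unadjusted p under 0.05, 0 by edgeR and 1 by DESeq2. With gemcitabine, the members of MiaPaCa2 that were not called and have no value above stood between -0.33 (BTC) and 0.06 (ERBB2) on the log2 scale, and in PANC1 ERRFI1 had -0.16 ± 0.101 and EGFR 0.14 ± 0.095.

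Did the lines answer gemcitabine differently? The difference of the responses was tested in 1 model of the 16 libraries and passed (adjusted p ≤ 0.05) for 4 of 10 members, against 15.3% of 17863 genes. PANC1 minus MiaPaCa2 was 0.64 ± 0.116 for EGFR (adjusted p = 0.00397) and 0.61 ± 0.119 for ERRFI1 (adjusted p = 0.00613) by limma-voom. Both genes fell in MiaPaCa2, and neither was called in PANC1. For HBEGF it was -0.78 ± 0.224 (adjusted p = 0.0352 by limma-voom), a smaller rise in PANC1, and this call was lost with library size alone in place of TMM, with no filter on low counts, on log2(FPKM + 1) and in 6 of the fits that left out a library. For TGFA it was -3.27 ± 0.582 (adjusted p = 0.00376 by limma-voom), which rests on the 3 control counts of MiaPaCa2. The responses to genistein differed between the lines for 0 of 10 members by limma-voom, against 0.0336% of all genes, with 5 at an unadjusted p under 0.05, 0 by edgeR and 1 by DESeq2.

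Whether the drugs together did more than the sum of each was tested as an interaction on the log2 scale. It passed for 0 of 10 members in MiaPaCa2, against 0.0249% of all genes, with 1 at an unadjusted p under 0.05, and for 0 of 8 in PANC1, against 0%, with 4 at an unadjusted p under 0.05, by limma-voom. The counts were 0 in both lines by edgeR and by DESeq2 as well. For HBEGF the interaction was 0.0062 ± 0.223 in MiaPaCa2 and 0.54 ± 0.217 in PANC1, and for ERRFI1 it was -0.36 ± 0.120 and -0.57 ± 0.149. A p that misses the threshold with 2 libraries per group does not show that the drugs acted additively.

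The rest of the pathway was read from 5 lists of genes, 59 in all, which hold none of the members. In MiaPaCa2, 25 of 49 tested were called with gemcitabine (10 higher, 15 lower, 51% of those tested, against 29.6% of all genes). Genistein called 6 (5 higher, 1 lower, 12.2%, against 8.31%) and both drugs 36 (14 higher, 22 lower, 73.5%, against 40.5%). Both drugs against gemcitabine called 5 (5 higher, 0 lower, 10.2%, against 5.88%). In PANC1, 10 of 52 tested were called with gemcitabine (4 higher, 6 lower, 19.2%, against 7.52% of all genes). Both drugs called 13 there (3 higher, 10 lower, 25%, against 17.1%). The 10 became 5 without the first control library, 2 without the first gemcitabine library and 1 without the second. In MiaPaCa2 the 25 became 16 and the 6 became 3 without the first control library. The 5 became 1 without either gemcitabine library and 11 without the first library with both drugs. Genistein alone and both drugs against gemcitabine called 0 of 52 in PANC1 by limma-voom and 0 by edgeR, with 8 and 11 at an unadjusted p under 0.05. Over all genes, 0.0591% and 0.0177% were called there by limma-voom. The medians of the log2 fold changes of the 49 genes were -0.16, 0.01 and -0.21 for gemcitabine, genistein and both drugs in MiaPaCa2, beside -0.01, -0.0039 and -0.01 over all genes. Those of the 52 genes in PANC1 were 0.04, 0.10 and -0.08, beside 0.03, 0.05 and 0.01 over all genes.

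**Figure D4:**
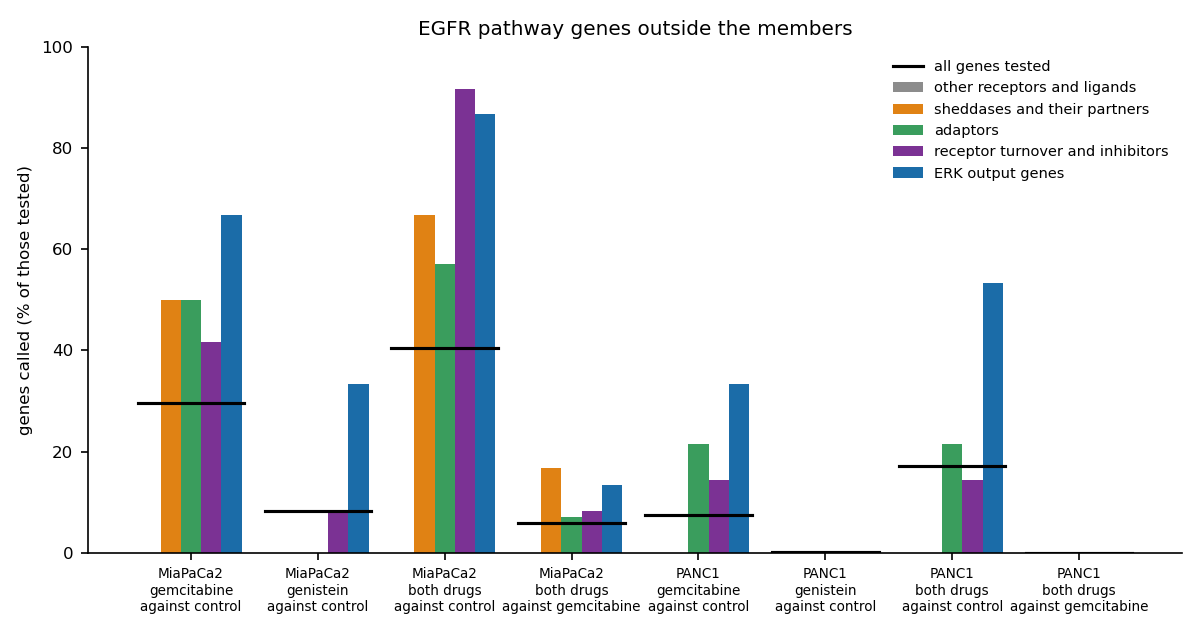
Share of the tested genes of each list that were called (bars, %), for 4 comparisons in each line, with a black line at the share over all genes tested; a missing bar is 0. The ERK output genes stand above the line in every comparison with control that called any of them, and the other receptors and ligands had 0 called.

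Genes that ERK signaling switches on were called in both lines. Of the 15 in this list, all tested, gemcitabine called 10 in MiaPaCa2 (6 higher, 4 lower), against 29.6% of all genes, and 5 in PANC1 (2 higher, 3 lower), against 7.52%. Both drugs called 13 (7 higher, 6 lower) and 8 (3 higher, 5 lower), against 40.5% and 17.1%. The count of 5 in PANC1 was 3 without the first control library, 2 without the first gemcitabine library and 1 without the second. Genistein called 5 in MiaPaCa2, all higher, against 8.31%, and 3 without the first control library. EGR1, an immediate early transcription factor, rose by 1.36 ± 0.105 with gemcitabine in MiaPaCa2 and by 3.79 ± 0.240 in PANC1 on the log2 scale, and DUSP5, a phosphatase of ERK, rose by 1.31 ± 0.131 and 1.23 ± 0.124. DUSP6, another such phosphatase, rose with both drugs in both lines (1.20 ± 0.114 and 1.08 ± 0.135). SPRY4, an inhibitor of receptor signaling, fell with both drugs in both lines (-0.87 ± 0.073 and -0.59 ± 0.106), and so did PHLDA1 (-0.76 ± 0.072 and -0.89 ± 0.094). With gemcitabine alone they were also called lower in both lines, at -0.70 and -0.50 for SPRY4 and -0.54 and -0.44 for PHLDA1, but both PANC1 calls were lost when either gemcitabine library was left out (adjusted p from 0.154 to 0.237 by limma-voom), and that of SPRY4 also without the first control library. So ERK targets went up and down within the same list.

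Of the sheddases that release the ligands, gemcitabine called 3 of 6 tested in MiaPaCa2 (1 higher, 2 lower), against 29.6% of all genes, and 0 of 6 in PANC1 by limma-voom, against 7.52%. With both drugs 4 (1 higher, 3 lower) and 0 were called, against 40.5% and 17.1%. The response to gemcitabine differed between the lines for 1 of the 6, against 15.3% of all genes. Among the 14 adaptors tested, gemcitabine called 7 in MiaPaCa2 (2 higher, 5 lower), against 29.6% of all genes. In PANC1 it called 3 (1 higher, 2 lower), against 7.52%. VAV2, a guanine nucleotide exchange factor, fell with both drugs in both lines (-0.79 ± 0.104 and -0.59 ± 0.145), and its PANC1 call was lost without the first control library or the first library with both drugs. Of the genes of receptor turnover and inhibition, both drugs called 11 of 12 in MiaPaCa2 (4 higher, 7 lower), against 40.5% of all genes. In PANC1 they called 2 of 14 (2 lower), against 17.1%. PTPRJ, a receptor phosphatase, fell with both drugs in both lines (-0.47 ± 0.134 and -0.83 ± 0.120). Its MiaPaCa2 call was lost without the first control library or the second library with both drugs.

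A correction for GC content moved some members and left others. With both drugs in MiaPaCa2, HBEGF was 3.03 before and 2.93 after the correction, ERRFI1 -1.27 and -1.27, EGFR -0.80 and -0.94, and TGFA 5.61 and 5.43. EREG moved from -1.12 to -0.47 and BTC from -0.58 to 0.0091. ERBB2, at the other end with 59.5% GC, moved from 0.26 to -0.055. AREG moved from 1.57 to 1.90, and ERBB3 from 0.42 to 0.25, where it was no longer called.

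**Figure D5:**
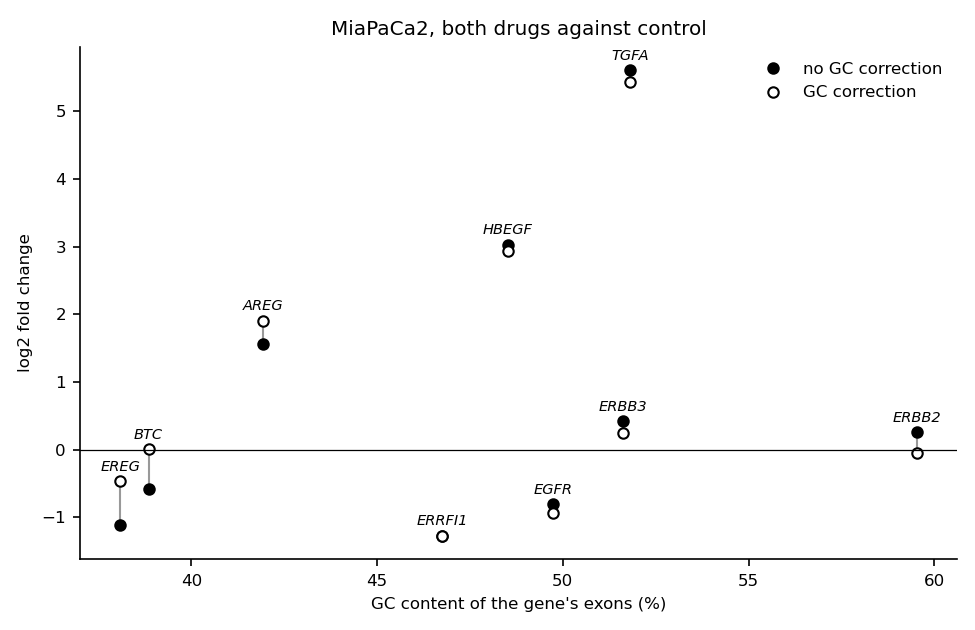
Log2 fold change with both drugs in MiaPaCa2 (y axis) against the GC content of each gene's exons (x axis, %), before (filled) and after (open) a correction for GC content; MET, with no value past an unadjusted p of 0.05, is left out. The pairs of circles are furthest apart for EREG and BTC, then for AREG and ERBB2, and closer together for ERBB3, HBEGF, TGFA, EGFR and ERRFI1.

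The transcript with the highest isoform FPKM of a gene was the same in both lines for every member except BTC. For BTC the leading transcripts held medians of 86.7% in MiaPaCa2 and 54.3% in PANC1, where it had few counts. For HBEGF a single coding transcript held a median of 99.9% of the gene's FPKM in MiaPaCa2 (lowest library 59.4%) and 99.1% in PANC1. For EGFR it held 93.3% and 91.4%, for ERRFI1 90.2% and 92.2%, and for EREG 75.8% and 75.4%. ERBB2 (24 isoforms listed) had its leading coding transcript at 49.0% and 48.0%. In MET the same coding transcript had 27.1% in MiaPaCa2 and 46.4% in PANC1. ERBB3 had a leading transcript annotated as a retained intron, with 0 to 57.3% in MiaPaCa2 and 0 to 66.5% in PANC1, so that no isoform of it could be followed. For TGFA the leading transcript held 66.9% in MiaPaCa2 (lowest library 28.5%) and 99.9% in PANC1.

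The genes whose pattern was most like that of each member were sought among 13033 genes, by Pearson's r of log2 CPM over the 16 libraries after taking out the mean of each line, with AREG and BTC left out since they did not pass the count filter in PANC1. The libraries of a group share their treatment, and the slope of log2 CPM on GC content also differed between the libraries of a line. PPP1R16B (r = 0.98) and MAN1C1 (0.98) were nearest to HBEGF, KIAA1161 (0.98) and the gene CPM (0.98) to TGFA, LMNB1 (0.99) and CELF1 (0.99) to ERRFI1, and TANC2 (0.98) and DDX42 (0.97) to EGFR. RBM25 (0.94) and BAZ1B (0.94) were nearest to EREG, CIB1 (0.96) and TTC38 (0.96) to ERBB2, LYSMD1 (0.89) and ARHGAP44 (0.86) to ERBB3, and MYO6 (0.91) and KIAA1147 (0.88) to MET. Between members, over the same 16 libraries, r was 0.87 for HBEGF with TGFA, -0.94 for HBEGF with ERRFI1, -0.87 for TGFA with ERRFI1 and 0.88 for EREG with ERRFI1. These are descriptions of libraries that share treatments.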

How the data were processed

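RNA from MiaPaCa2 and PANC1 cells was sequenced as stranded poly-A libraries of single reads. Per the methods and the submitters' processing notes, reads were mapped to GRCh37 with TopHat2 2.0.4, multiple alignments were removed with Picard 1.29, and counts were made with HTSeq 0.6.1. The authors deposited counts per gene (whole numbers, not normalized), FPKM per gene and FPKM per isoform from Cufflinks 2.1.1. FPKM are scaled to length and library size. The strand setting of the counting and the annotation release are not given in the sources used here. Of the exon bases of ERBB2, 6.93% overlap a gene on the opposite strand, as do 3.71% of ERRFI1 and 1.17% of EGFR, and 0.265% of ERBB3 overlap one on its own strand. Names matched 12 rows of the FPKM table, and the second rows of TGFA and BTC, at 0 in every library, were set aside.

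Counts were compared by limma-voom, the method of the study (R 4.3.3, limma 3.58.1), after filterByExpr and TMM scaling (edgeR 4.0.16). A line's 8 libraries shared a model, and all 16 did for comparisons of lines. P values were adjusted (Benjamini-Hochberg) over all genes tested. A call needed adjusted p ≤ 0.05, |log2 fold change| ≥ 0.4 and, in treated libraries, an average over 1 FPKM. Differences between the lines in a drug response, and interactions, were judged by the adjusted p alone. The untreated lines were compared under the full rule, with an average over 1 FPKM in either line. "Rose" and "fell" mean called. Alternatives were edgeR's quasi-likelihood test, DESeq2 1.42.0, DESeq2 size factors, library size alone, no filter, limma-trend on log2(FPKM + 1), a replicate block, a GC correction (loess, span 0.3, degree 1, on GC content from GENCODE v44, known for 87.4% of genes), both together, the adjusted p alone, only the 4 libraries compared, and each library left out. The fits were tested on simulated counts. The replicates differed from each other by more than sampling noise (chi-square per degree of freedom 2.86 to 35.2). The study calls them biological replicates, the labels do not say what was separate, and p values measure only the spread between these libraries.

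The members and the pathway and marker lists were chosen with earlier results of these data known. Named genes were the members, list genes called in the same direction in both lines, ERBB4, EGF, NRG1 and HGF for their levels, and for each member the 2 genes with the most similar pattern.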

Additional observations from a re-analysis of the deposited data

Results flagged for a closer look

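The response to gemcitabine differed between the lines, by the test of the difference itself in limma-voom, for 4 members. PANC1 minus MiaPaCa2 was 0.64 on the log2 scale for EGFR, 0.61 for ERRFI1, -0.78 for HBEGF and -3.27 for TGFA. EGFR and ERRFI1 fell in MiaPaCa2 and were not called in PANC1, HBEGF rose in both lines and more in MiaPaCa2, and TGFA started from 3 counts over both MiaPaCa2 controls, so the size of its difference is poorly determined. The difference for HBEGF had an adjusted p of 0.0352 by limma-voom and was not past the threshold with library size alone, with no filter on low counts, on log2(FPKM + 1) or in 6 of the 8 fits that left out a library.

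AREGB, the second copy of AREG in GRCh37, is no member and entered no comparison. It had 8 counts in the first MiaPaCa2 library with both drugs and 0 in the other 15 libraries, controls included, although its FPKM was 53.3 to 75.1 in all 8 MiaPaCa2 libraries.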

How the results depend on the processing

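Of the fold changes of single members under other settings, 881 kept their direction and their side of the threshold, 56 kept the direction but lost the threshold, 21 gained it and 4 changed sign. The 881 include values that were not called at first and stayed so, whereas the 56 could come from called values only. These counts are therefore not a rate at which calls held. The 4 were, with both drugs in MiaPaCa2, ERBB2 (-0.055 with the GC correction, -0.055 with the replicate block and GC correction) and BTC (0.0091 and 0.017). Counts of members called moved by over 1.5 times in these cases. On log2(FPKM + 1), gemcitabine in MiaPaCa2 called 3, genistein 0, and both drugs against gemcitabine 1. By the adjusted p alone, genistein in MiaPaCa2 called 4. With the GC correction, PANC1 called 2 with gemcitabine, 1 with genistein and 2 with both drugs against gemcitabine, and with the replicate block and GC correction 2, 0 and 2. DESeq2 called 1 with genistein in PANC1, 1 with both drugs against gemcitabine in PANC1, and 1 for the difference between the lines in the response to genistein. Leaving out a library gave 0 to 1 for genistein in MiaPaCa2, with 0 without the second control library, and 0 to 3 for gemcitabine in PANC1, with 3 without the second control library and 0 without either gemcitabine library. A left-out library leaves a group with 1, which is assumed to vary like the other groups. Of the other pathway genes, the replicate block called 2 with gemcitabine in PANC1 and 0 for the interaction in MiaPaCa2, and edgeR called 1 for the line difference in the response to genistein. Leaving out a library, an alternative chosen after seeing the data, gave 16 to 24 of these genes with gemcitabine, 3 to 7 with genistein and 1 to 11 with both drugs against gemcitabine in MiaPaCa2, and 1 to 9 with gemcitabine in PANC1. The causes were not tested. Of all genes, genistein in PANC1 called 10 by limma-voom but 739 with DESeq2 and 1275 with the GC correction, and both drugs against gemcitabine there called 3 but 1305 with the GC correction. Library size alone in place of TMM shifted the all-gene median (log2) in PANC1 from 0.03 to 0.14 with gemcitabine and from 0.01 to 0.17 with both drugs.

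Same-numbered libraries did not deviate together on average (mean correlation -0.0651 in MiaPaCa2 and -0.0786 in PANC1). The 6 correlations of a line ran from -0.299 to 0.155 in MiaPaCa2 and from -0.569 to 0.331 in PANC1. They cannot show whether the numbers pair the samples, which the labels do not say. With the replicate block 442 genes in place of 1272 were called with gemcitabine in PANC1, and 2 ERK output genes in place of 5, and the adjusted p of the HBEGF line difference was 0.0509 by limma-voom. AREG and BTC in PANC1 and TGFA in the MiaPaCa2 controls had 3 counts or fewer per library, so their fold changes are poorly sized.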
